A study of Mus musculus with 5 samples.

Results

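Pvt1 and the genes of the MYC network were followed in endothelial cells sorted from the mouse thymus after irradiation. The group held 9 genes, taken by name: the non-coding RNA gene Pvt1, the MYC genes Myc, Mycn and Mycl, their partner Max, and Mxd1, Mxd4, Mxi1 and Mnt. Their symbols were carried by 20 probe sets out of 20380 with 1 gene symbol, which stood for 12393 genes in all. The genes were proposed with the day 4 to day 0 differences of these same arrays already known, so the differences of the 9 members are given as a description and without a test.

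The irradiated group was 2 arrays of thymic cells from mice that received whole-body irradiation of 550 cGy, a sublethal dose, from a cesium source and were sampled on day 4 with no hematopoietic rescue. The untreated group, called day 0, was 3 arrays. All mice were female C57BL/6J animals of 6 to 8 weeks. Each array held RNA pooled from the endothelial cells of several mice, sorted for VE-cadherin on their surface and for the lack of CD45 and EpCAM. The cell type label reads CD45- thymic stromal cells for the irradiated arrays and thymic endothelial cells for the untreated ones, although 1 sort is described for both. Nothing states that mice were shared between pools or how pools were split, so the errors rest on the spread between these pools. The SDs are from the arrays of a group alone. The SEs are from limma, which draws the variance of each gene toward that of all genes tested.

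MYC proteins are transcription factors that drive ribosome production, metabolism and entry into the cell cycle. They bind DNA only as a pair with MAX, at a short motif called the E-box, CACGTG. The MXD proteins, MXI1 and MNT pair with MAX at the same motif and recruit repressors, so the balance of MAX partners sets the output of shared target genes. Pvt1 is a long non-coding RNA gene that lies next to Myc on chromosome 15. In mouse cells a stress-induced isoform of Pvt1 is known as a target of the DNA damage regulator p53 that lowers Myc transcription nearby. In blood vessels Myc is known to support endothelial growth and metabolism.

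Values were log2 GCRMA signals, which are relative within a probe set and do not compare levels between genes. A probe set was counted as measured if it lay above a log2 value of 4 on at least 2 arrays. Of the 20 member probe sets 14 passed, and each of the 9 genes kept at least 1. The probe set with the highest mean stood for the gene. For genes outside the member group that probe set alone is given unless stated, and other probe sets of the same gene can differ. The table carried no detection calls, so values near or under 4 may be background.

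The arrays had medians of 5.29 and 5.30 at day 4 and of 5.26 to 5.27 at day 0. Across all 8940 genes tested with limma, 134 were called higher and 121 lower at day 4 (adjusted p under 0.05), which is 1.5% and 1.35% of them and 2.85% in either direction. Leaving out day 4 replicate 1 gave 7 higher and 4 lower genes, and leaving out day 0 replicate 3 gave 20 and 14. Leaving out day 4 replicate 2 gave 232 higher genes, the fit lacking day 0 replicate 2 gave 60, and the fit lacking day 0 replicate 1 gave 50 lower genes. Endothelial markers were present on every array: 10 of them, Cdh5 and Pecam1 included, had mean log2 levels of 10.36 and 10.64 at day 4, against 10.54 to 10.64 at day 0. Ptprc, which encodes the CD45 that the sort excluded, read 6.68 and 6.38 at day 4, against 6.86, 6.08 and 6.63 at day 0. Epcam, the other excluded marker, read 7.17 and 5.67 at day 4, against 7.27, 6.60 and 6.83 at day 0. Each array thus held signal of both genes above the level filter.

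Pvt1 stood far above the other members in its difference. Its measured probe set read 7.11 and 7.06 log2 units on the day 4 arrays, against 5.57, 5.69 and 5.57 on the day 0 arrays. Both day 4 arrays were high and close together, and the groups lay well apart. The irradiated arrays averaged 7.09 ± 0.035 (SD, n = 2) and the untreated ones 5.61 ± 0.068 (SD, n = 3). The log2 difference was 1.48 ± 0.093 (SE), a 2.78-fold higher signal. It ranked as number 59 from the top among the 8940 genes. The fit across all genes counted Pvt1 among the 134 genes called higher. Because Pvt1 was proposed with this same contrast known, that call is not a test of it.

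The 2 other Pvt1 probe sets lay under the level filter on every array. The first read 3.68 and 3.40 at day 4, against 3.10, 3.07 and 3.19 at day 0, and the second read 3.02 and 3.43 at day 4, against 3.06, 2.75 and 2.67 at day 0. Their log2 differences of 0.42 and 0.40 had the same sign as that of the measured probe set. The groups did not overlap in the first and overlapped in the second. Which Pvt1 isoforms each probe set detects is not given in the sources used here.

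Myc, the main MYC gene of dividing and growing cells, had the second largest difference among the members. Its 1 probe set read 8.80 and 8.64 at day 4, against 8.30, 8.48 and 8.14 at day 0. Both day 4 arrays lay above all day 0 arrays, by a narrow margin over day 0 replicate 2. The irradiated arrays averaged 8.72 ± 0.11 (SD, n = 2) and the untreated ones 8.31 ± 0.17 (SD, n = 3), a log2 difference of 0.41 ± 0.13 (SE) or 1.33-fold. Leaving out single arrays gave values of 0.32 to 0.50. Myc was not among the called genes.

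**Figure D1:**
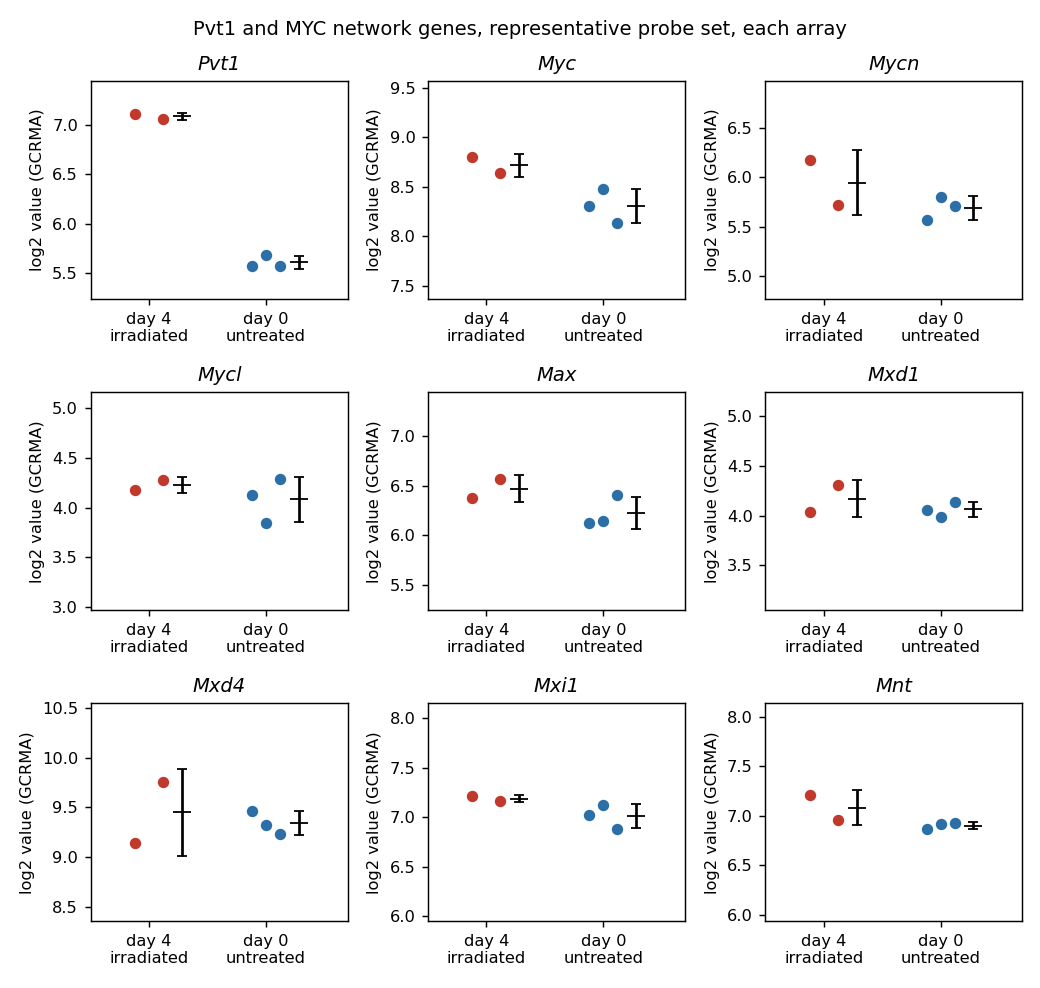
Log2 GCRMA value (y axis, the same span of 2.2 units in each panel) of the representative probe set of each member on the day 4 irradiated arrays (red, left) and the day 0 untreated arrays (blue, right); black bars show the mean ± SD. Pvt1 is at 7.06 to 7.11 at day 4 and 5.57 to 5.69 at day 0, while Myc, Mxi1 and Mnt are apart by less and the other 5 members overlap.

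Mycn, the MYC gene best known from embryonic and neural tissue, overlapped between the groups. Its highest probe set read 6.18 and 5.72 at day 4, against 5.56, 5.80 and 5.71 at day 0, and day 4 replicate 1 alone stood out. The log2 difference of 0.25 ± 0.16 (SE) was 0.024 without that array. A second measured probe set gave 0.079, and the one under the filter gave 0.25. Mycl, another MYC gene, lay near the filter at 4.17 and 4.28 at day 4, against 4.12, 3.84 and 4.29 at day 0. Its log2 difference was 0.14 ± 0.15 (SE), and its 2 probe sets under the filter gave 0.16 and -0.28. The last of these was the 1 negative difference among the 20 member probe sets.

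Max, the shared partner, read 6.37 and 6.57 at day 4, against 6.12, 6.15 and 6.41 at day 0. The groups overlapped because day 0 replicate 3 lay above day 4 replicate 1. The log2 difference was 0.24 ± 0.13 (SE).

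The antagonists Mxd1, Mxd4, Mxi1 and Mnt had log2 differences of 0.11 to 0.18. Mxi1 read 7.21 and 7.16 at day 4, against 7.02, 7.12 and 6.88 at day 0, a log2 difference of 0.18 ± 0.11 (SE). Its second measured probe set, close to the filter, gave 0.046 and overlapped. Mnt, which pairs with MAX in resting and cycling cells alike, read 7.21 and 6.96 at day 4, against 6.86, 6.92 and 6.92 at day 0. Its groups did not overlap, yet the difference of 0.18 ± 0.11 (SE) was 0.056 without day 4 replicate 1. The second Mnt probe set lay under the filter, with a difference of 0.10.

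Mxd4 was the antagonist whose irradiated arrays disagreed most. Its highest probe set read 9.14 and 9.76 at day 4, so the 2 arrays lay on both sides of the day 0 values of 9.47, 9.32 and 9.23. The log2 difference of 0.11 ± 0.19 (SE) was -0.20 without day 4 replicate 2 and 0.42 without day 4 replicate 1. The 3 other Mxd4 probe sets gave 0.31, 0.22 and 0.15, and in 1 of them, at 6.62 and 6.81 at day 4 and 6.48, 6.47 and 6.53 at day 0, the groups did not overlap. Mxd1, which rises in many cells as they stop dividing, lay at the filter with 4.04 and 4.30 at day 4, against 4.06, 3.99 and 4.14 at day 0. Its difference of 0.11 ± 0.12 (SE) was -0.023 without day 4 replicate 2.

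Across the members, the representative difference was positive for 9 of 9 genes, with a median of 0.18, against a median of -0.023 over all genes tested. For 8 of the 9 it was under 0.5. The day 4 arrays lay above the day 0 arrays for 4 genes (Pvt1, Myc, Mxi1 and Mnt) and below them for 0. Among all genes, 18% lay above, 23% lay below and 41.1% lay apart in either direction. Of the 20 probe sets, 19 differences were positive, 7 lay apart with day 4 above, and 13 overlapped. The number of called members was 1 of 9, beside 1.5% of all genes called higher. Because the members were chosen with this contrast in view, nothing is read from these counts. The positive sign of all 9 was kept after quantile normalization and after median centring, and 7 of 9 were positive without day 4 replicate 2.

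**Figure D2:**
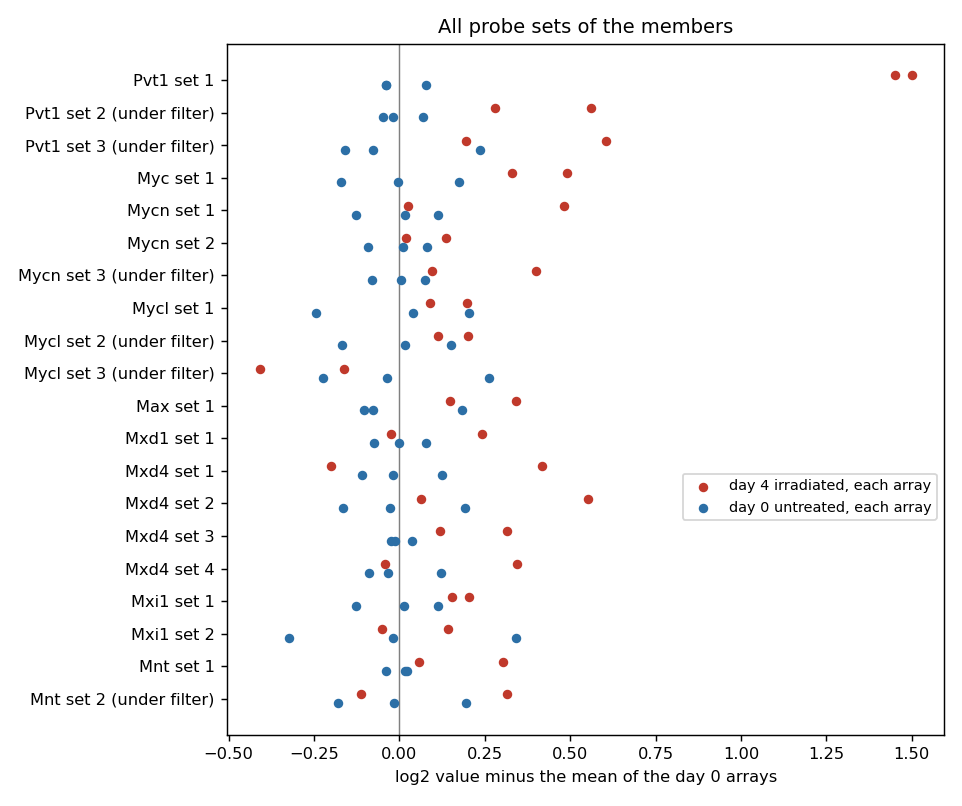
Log2 value of each array minus the mean of the day 0 arrays (x axis) for all 20 member probe sets, with day 4 irradiated arrays in red above day 0 untreated arrays in blue; sets are numbered within a gene from the highest mean. The measured Pvt1 probe set is at about 1.5 log2 units, and 6 sets are marked as under the level filter.

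The promoter windows of 7 of the 9 members, 250 bases before to 50 after the start of the gene, were searched for the E-box. They came from RefSeq on build GRCm38.p6. Pvt1 and Myc were not matched. The letters CACGTG, which read the same on both strands, were found in the windows of Max, Mnt and Mxd4 and not in those of Mycn, Mycl, Mxd1 and Mxi1. Among all 27025 genes with a window 8.09% held the motif. The stretches around the match are shown because they are the sequence that MYC-MAX and MXD-MAX pairs recognise, with the E-box in capitals.
Max: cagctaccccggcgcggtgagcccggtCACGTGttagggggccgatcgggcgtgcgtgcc
Mnt: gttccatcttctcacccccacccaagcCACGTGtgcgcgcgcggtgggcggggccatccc
Mxd4: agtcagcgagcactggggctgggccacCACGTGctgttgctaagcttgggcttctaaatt
The Max stretch lies at chr12:76962219-76962278 on the minus strand, with the E-box over the start of the gene. The Mnt stretch lies at chr11:74830774-74830833 on the plus strand and the Mxd4 stretch at chr5:34187897-34187956 on the minus strand. A match is a description of the letters and not a binding site. In these 3 genes the log2 differences were 0.24, 0.18 and 0.11, as given above.

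The genes that MYC activates were read from 3 lists written from textbook knowledge, with 59 of 66 genes measured. All lists used here were chosen with earlier results of these data known. Their counts are therefore a description and not a test of the lists. Of the 59, 1 rose and 0 fell by the limma test across all genes, beside 1.5% of all genes called higher and 1.35% lower. At an unadjusted p under 0.05, 18 were higher and 0 lower, and 47 of 59 differences were positive. Over all 8940 genes tested, 905 were higher and 991 lower at that p, and 4082 differences were positive. These counts over all genes are the background for every unadjusted count below. The median log2 difference was 0.17, against -0.023 for all genes. It was 0.16 after quantile normalization and 0.14 after median centring. The 59 genes had mean log2 levels of 7.77 and 7.61 at day 4, against 7.46, 7.47 and 7.46 at day 0. Leaving out day 4 replicate 2 gave 8 called targets, and leaving out any of the other arrays gave 0.

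Ribosome production genes made up the first list, with 25 measured genes and a median difference of 0.21. Gnl3, which encodes the nucleolar protein nucleostemin, was the called one. It read 8.96 and 8.54 at day 4, against 7.99, 7.97 and 8.02 at day 0, so both irradiated arrays were high and apart from each other. The log2 difference was 0.75 ± 0.14 (SE), with a limma adjusted p of 0.0496. That call was lost after median centring (0.72), without a level filter, with averaged probe sets, with array weights and without each array other than day 4 replicate 2, where the difference was 0.54 to 0.77. Ncl, the nucleolar protein nucleolin, read 10.18 and 9.60 at day 4, against 9.44, 9.39 and 9.60 at day 0 (0.41, limma adjusted p = 0.260). Other Ncl probe sets gave 0.097, 0.55 and 0.36. Npm1, the histone chaperone nucleophosmin, differed by 0.091 (limma adjusted p = 0.680). Of the 25 genes, the day 4 arrays lay above the day 0 arrays in 14 and below in 0. Among all genes 18% lay above and 23% below.

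Metabolic targets, with 19 measured genes, had a median of 0.085, and 0 were called by limma (3 higher and 0 lower at an unadjusted p under 0.05). Odc1, the first enzyme of polyamine synthesis and a classical MYC target, read 10.59 and 9.90 at day 4, against 9.79, 9.85 and 9.66 at day 0. Its difference of 0.48 had a limma adjusted p of 0.248, and it was called without day 4 replicate 2 (0.83). Hk2, a hexokinase of glycolysis, read 6.93 and 5.94 at day 4, against 5.41, 5.22 and 5.32 at day 0 (1.11, limma adjusted p = 0.0901). Slc7a5, a transporter of large amino acids, read 7.39 and 6.58 at day 4, against 5.89, 6.21 and 5.85 at day 0, with means of 6.99 and 5.98 (limma adjusted p = 0.0902). Hk2 and Slc7a5 were picked out after their values were seen, as the largest differences of the list. Cad of pyrimidine synthesis (0.17, limma adjusted p = 0.468), the lactate dehydrogenase gene Ldha (0.13, adjusted p = 0.573) and the transferrin receptor gene Tfrc (0.33, adjusted p = 0.439) overlapped between the groups.

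Translation and growth targets, with 15 measured genes, had a median of 0.19 and 0 limma calls (5 higher and 0 lower at an unadjusted p under 0.05). Ccnd2, the gene of cyclin D2, differed by 0.19 (limma adjusted p = 0.367), and Cdk4, its kinase partner, by -0.17 (adjusted p = 0.347). The day 4 arrays lay above the day 0 arrays for Ccnd2 and below them for Cdk4.

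On most of these targets the 2 irradiated arrays were unequal. Day 4 replicate 1 lay above day 4 replicate 2 for 44 of the 59 genes (74.6%), against 43.8% of all genes tested. The median gap was 0.14 log2 units for the targets and -0.038 for all genes. On Pvt1 the same gap was small, at 7.11 for replicate 1 and 7.06 for replicate 2.

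**Figure D3:**
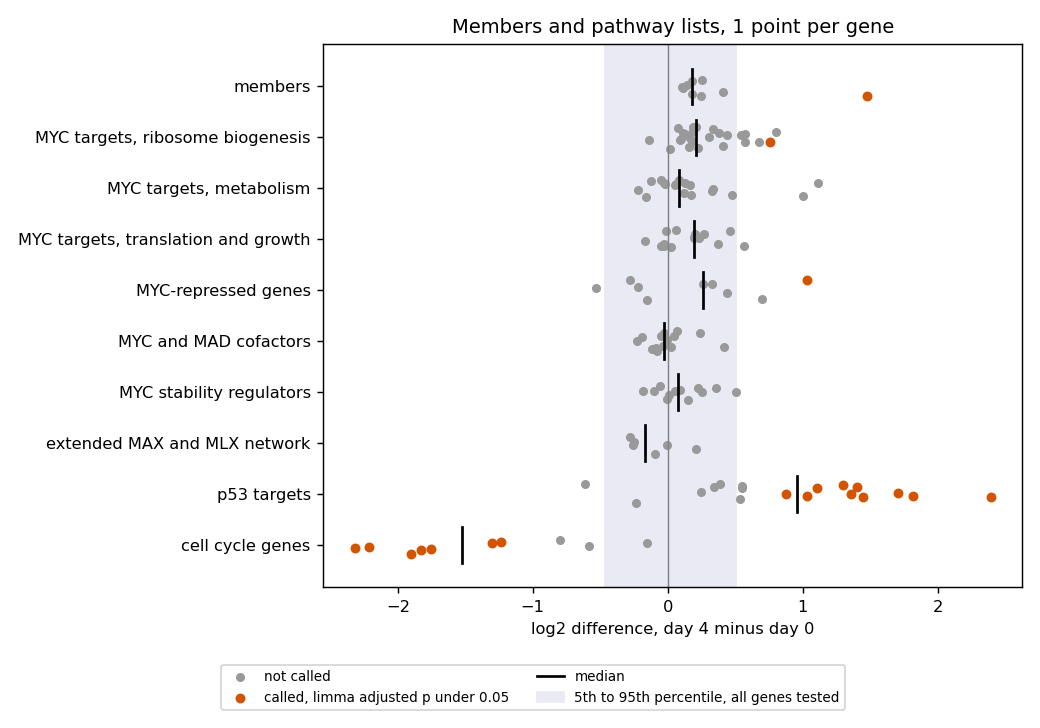
Log2 difference, day 4 minus day 0 (x axis), of each measured gene of the members and of 9 pathway lists; orange points were called by limma, black bars are list medians and the band spans the 5th to 95th percentile of all genes, -0.47 to 0.51. Medians of the MYC target lists are 0.085 to 0.21, beside 0.96 for p53 targets and -1.53 for cell cycle genes.

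Of the 9 genes that MYC is known to repress, 1 rose, 0 fell and 8 did not pass. At an unadjusted p under 0.05, 3 were higher and 1 was lower, and 5 of the 9 differences were positive. The lower one was Cdkn2b (-0.53, limma adjusted p = 0.0801). Among all genes tested, 1.5% were called higher and 1.35% lower. The repressed gene that rose was Cdkn1a, the cell cycle inhibitor p21, which also belongs to the p53 list. It read 12.78 on both day 4 arrays, against 11.73, 11.70 and 11.82 at day 0, a log2 difference of 1.03 (limma adjusted p = 0.00873). Without day 4 replicate 1 the difference was 1.03 and not called. The list had 2 rises after quantile normalization, with a level filter at 6 and with an intensity trend, and 1 fall without day 4 replicate 2.

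Transcripts of proteins that act with or on MYC were then counted. Of 14 measured cofactors of MYC and MXD proteins, 0 were called by limma (1 higher and 0 lower at an unadjusted p under 0.05), with a median of -0.029. Of 12 measured regulators of MYC stability, 0 were called (4 higher and 0 lower at an unadjusted p under 0.05), with a median of 0.072. In the wider network of MAX and of its relative MLX, 0 of 6 measured genes were called by limma and 0 had an unadjusted p under 0.05. There Mga, which also pairs with MAX, differed by -0.0075 (limma adjusted p = 0.980) and Mxd3, an MXD gene of dividing cells, by -0.092 (adjusted p = 0.750). A further Mga probe set gave 0.18, and those of Mxd3 gave -0.20 and -0.30. Mlx itself read 5.89 and 6.09 at day 4, against 6.26, 6.15 and 6.31 at day 0 (-0.25, limma adjusted p = 0.252). Txnip, a brake on glucose uptake that MLX partners switch on, differed by -0.28 (adjusted p = 0.464), and by -0.63 with a limma call without day 4 replicate 2.

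The p53 list is given because Pvt1 is known as a p53 target. This list and the cell cycle list below were chosen with earlier results of these data known, so their counts are a description. Of the 18 measured genes of the p53 list 10 rose and 0 fell by limma, with a median of 0.96, beside 1.5% of all genes called higher. Leaving out day 4 replicate 1 left 3 rises, and leaving out day 0 replicate 3 left 6. Phlda3, an inhibitor of AKT signalling, rose by 2.39 ± 0.10 (SE, limma adjusted p = 0.00107). Ccng1, the gene of cyclin G1, rose by 1.82 ± 0.11 (adjusted p = 0.00360), and the stress sensor gene Sesn2 by 1.71 ± 0.18 (adjusted p = 0.0124, not called without day 4 replicate 1 at 1.60). Mdm2, whose product degrades p53, rose by 1.30 ± 0.20 (limma adjusted p = 0.0325). Its call was lost without day 4 replicate 1 (0.96) and without each of the day 0 arrays (1.26 to 1.35).

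Cell cycle genes went the other way. Of 10 measured ones 7 fell and 0 rose, with a median of -1.53, beside 1.35% of all genes called lower. Mki67, a marker of cycling cells, fell by 2.32 on the log2 scale (limma adjusted p = 0.0134), Ube2c, a ubiquitin enzyme of mitosis, by 2.21 (adjusted p = 0.0177), and Birc5, the survivin gene, by 1.90 (adjusted p = 0.00566). Ube2c read 3.95 and 3.28 and Birc5 3.27 and 2.96 on the day 4 arrays, under the level filter, so the sizes of these falls rest on values that may be background. The fit lacking day 4 replicate 1 had 1 fall, the fit lacking day 4 replicate 2 had 3, and the fit lacking day 0 replicate 3 had 1. A gene low at day 4 passes a level filter only through its day 0 arrays, which favours falls among the measured genes. Under a level filter at 6, 4 genes of the list were measured and 4 fell, which that filter partly fixes. Without a level filter 14 were measured, 8 fell and 0 rose, with a median of -1.17. Mki67 and Ube2c were not called without day 4 replicate 1 (-2.50 and -2.55) or without day 0 replicate 3 (-2.21 and -2.27).

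The 5 genes whose profile over the 5 arrays lay nearest to that of Pvt1 were Olr1, Zmat3, Spic, Ephx1 and Exoc4. Nearness was the Euclidean distance between log2 profiles, each centred on its own mean, and it was 0.16 to 0.25 for these genes, against a median of 1.67 over all genes. Zmat3, an RNA-binding p53 target, read 6.87 and 6.77 at day 4, against 5.51, 5.42 and 5.45 at day 0. Ephx1, an epoxide hydrolase of detoxification, read 11.31 and 11.20 at day 4, against 9.63, 9.57 and 9.61 at day 0. Exoc4, a subunit of the exocyst that tethers secretory vesicles, read 9.20 and 9.38 at day 4, against 7.69, 8.05 and 7.88 at day 0. Olr1, a receptor for oxidised lipoprotein on endothelial cells and macrophages, read 5.52 and 5.64 at day 4, against 4.12, 4.32 and 4.14 at day 0. Spic, a transcription factor of iron-recycling macrophages, read 5.02 and 4.75 at day 4, against day 0 values of 3.43, 3.37 and 3.31, which were under the filter. The nearest genes were picked by the same contrast that sets Pvt1 apart, so their likeness is a description.

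**Figure D4:**
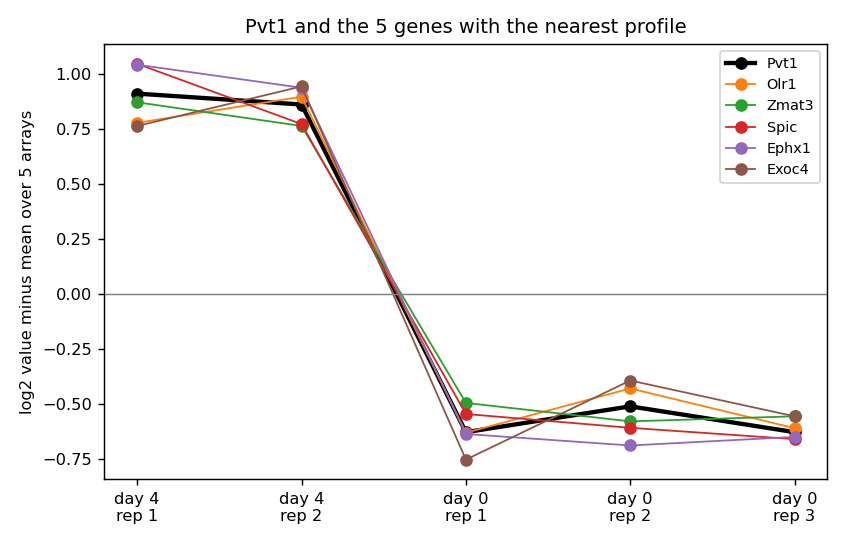
Log2 value minus the mean over the 5 arrays (y axis) on each array (x axis) for Pvt1 (black) and the 5 genes with the nearest profile. All 6 genes are above 0 on both day 4 arrays and below 0 on the 3 day 0 arrays.

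Windows of 4 of these 5 genes were found, and 1 of them, that of Exoc4, held a p53 half-site, the motif that p53 binds in pairs. The same motif was found in 7 of 15 p53 targets with a window and in 9.55% of all genes. Of the members with a window, Mycl alone held it. The Exoc4 stretch is shown beside that of Cdkn1a, whose half-site is printed as a known kind of p53 target, with the half-site in capitals.
Exoc4: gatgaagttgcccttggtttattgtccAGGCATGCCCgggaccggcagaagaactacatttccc
Cdkn1a: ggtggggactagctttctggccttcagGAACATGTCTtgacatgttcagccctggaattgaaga
The Exoc4 stretch lies at chr6:33248898-33248961 and the Cdkn1a stretch at chr17:29090901-29090964, both on the plus strand of GRCm38.p6. The Cdkn1a window held 2 half-sites in all, of which 1 is capitalised.

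Markers of other cells moved with the same contrast. The 13 macrophage genes had mean log2 levels of 7.96 and 7.74 at day 4, against 6.59, 5.61 and 5.85 at day 0. The day 4 arrays lay above the day 0 arrays for 13 of 13, beside 18% of all genes. On the same arrays Pvt1 read 7.11 and 7.06 at day 4, against 5.57, 5.69 and 5.57 at day 0, and a relation between the macrophage level and Pvt1 was not tested. The thymocyte level (8 of 11 genes measured, 2 under the filter) stood at 4.33 and 4.25 at day 4, against 6.52, 5.76 and 6.31 at day 0. The neutrophil level (3 of 7 measured, 4 under the filter) stood at 3.12 and 3.59 at day 4, against 5.41, 5.32 and 5.26 at day 0. The thymic epithelial level (8 of 10 measured) stood at 6.52 and 5.94 at day 4, against 7.18, 6.63 and 6.83 at day 0. The B cell level (2 of 5 measured) stood at 3.27 and 3.20 at day 4, against 4.49, 4.45 and 4.65 at day 0. The erythroid level (2 of 6 measured) stood at 4.67 and 4.76, against 6.24, 6.07 and 6.12. The day 4 levels of the neutrophil and B cell lists lay under the filter and that of the thymocyte list lay close to it. The filter thus favoured genes high at day 0 in these lists. Without a level filter the median log2 difference went from -1.80 to -1.34 for thymocyte genes and from -1.88 to -0.57 for neutrophil genes. It went from -1.29 to -0.71 for B cell genes and from -1.42 to -0.27 for erythroid genes. Fibroblast and pericyte levels overlapped between the groups. The 3' minus 5' signal of the actin control, a sign of RNA quality, gave 1.35 and 1.39 in the irradiated group, against 1.59, 1.65 and 1.43 in the untreated one. The part of these cells and of RNA quality in the differences of Pvt1, Myc and the target lists was not tested. In RNA of pooled cells, a change in the number of cells of a type and a change in RNA per cell cannot be told apart.

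**Figure D5:**
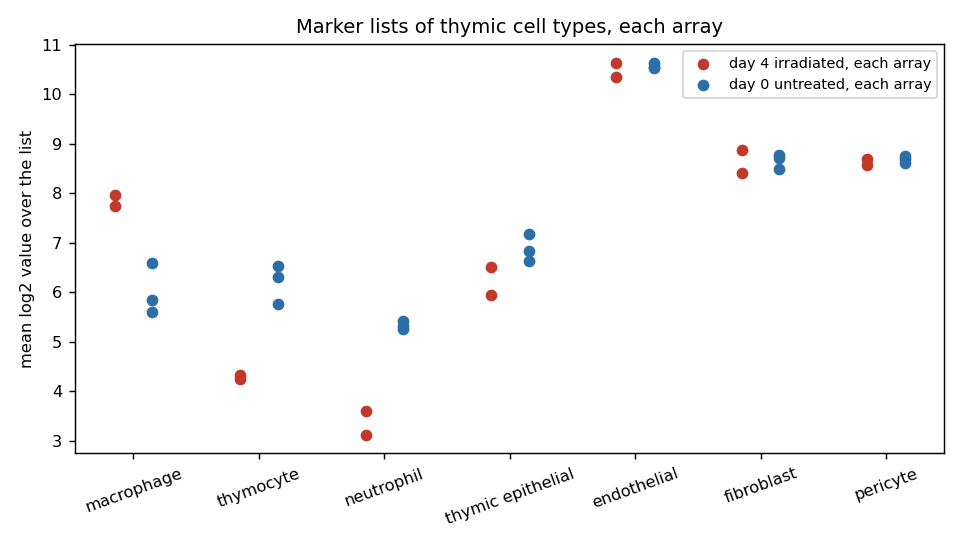
Mean log2 value over each marker list (y axis) on the day 4 irradiated arrays (red, left of each pair) and the day 0 untreated arrays (blue, right). The macrophage list is higher at day 4 (7.74 to 7.96, against 5.61 to 6.59), the thymocyte and neutrophil lists are lower, and the endothelial list overlaps. In the thymocyte and neutrophil lists the level filter favours genes high at day 0.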

How the data were processed

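RNA of sorted thymic endothelial cells was hybridised to single-colour Affymetrix MOE 430 A 2.0 arrays, 2 of irradiated (day 4) and 3 of untreated mice (day 0). The deposited values were log2 signals per probe set, which the submitters' processing notes say the authors made with GCRMA. The sources used here do not give the version or whether 1 run covered the 5 arrays. The log2 scale was read from the values (1.57 to 14.4). GCRMA hides a change shared by most genes and spreads out low values.

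Of 22690 probe sets, 64 were controls, 20380 had 1 symbol, 691 several and 1555 none. Entrez identifiers matched 20351 of the 20380 to RefSeq (GRCm38.p6), and 0 symbols changed. The test of day 4 against day 0 was limma 3.58.1 (lmFit, then eBayes) under R 4.3.3, two-sided, with no covariate and Benjamini-Hochberg adjustment over 8940 genes, with 3 residual and 3.29 prior degrees of freedom. The fit was tested on simulated data. The number of arrays limits the precision. Figures used matplotlib 3.10.9.

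Members and lists were chosen with earlier results of these data known. The text names all members, from each pathway list up to 3 called genes per direction, a set of genes named whatever their values (Ncl, Npm1, Odc1, Cad, Cdk4, Ccnd2, Ldha, Tfrc, Cdkn1a, Mdm2, Mki67, Mxd3, Mga, Mlx and Txnip), the 5 genes nearest to Pvt1 and its 6 nearest measured neighbours. Hk2, Slc7a5, Cdkn2b, Perp and Sesn1 were named after their values were seen. Alternatives were other array scaling, level filters, probe set averaging, variance models, array weights, a replicate block and leaving out each array.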

Additional observations from a re-analysis of the deposited data

How the results depend on the processing

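The Pvt1 difference was 1.45 to 1.51 under every alternative. With single arrays left out, 7 to 232 genes were called higher and 4 to 109 lower, and 0 to 8 of the MYC targets were called higher. An intensity trend with robust fitting gave 206 higher, 212 lower and 3 MYC targets. Array weights gave 49 higher, 37 lower and 0 MYC targets. The replicate number as a block gave 257 higher, 224 lower and 2 MYC targets higher. The numbers are not said to pair pools. Deviations of same-numbered arrays had r across genes of 0.16 for number 1 and 0.078 for number 2. Day 4 replicate 2 had r of 0.096 with day 0 replicate 3. The deviations of 2 day 4 arrays mirror each other, so these values cannot show whether pools were paired. The replicate block leaves day 0 replicate 3 out of the difference. MYC targets called higher were 2 after quantile normalization, 2 with a level filter at 6, and 0 after median centring, without a filter or with averaged probe sets. No MYC target was called lower under any alternative. The causes were not tested. Where 1 day 4 array was left out, the lone array was assumed to vary like the day 0 group. With a level filter at 6, Mycn, Mycl and Mxd1 had no value. Signals near the filter limit what Mycl, Mxd1 and the 2 lower Pvt1 probe sets can show.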

Other observations

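The measured genes next to the Myc and Pvt1 pair in RefSeq order on chromosome 15 did not move together. On the side of Pvt1, Cyrib read 8.70 and 8.35 at day 4, against 8.69, 8.41 and 8.32 at day 0, a log2 difference of 0.055 (limma adjusted p = 0.871). Asap1, which regulates membrane traffic, read 6.89 and 7.09 at day 4, against 6.40, 6.43 and 6.52 at day 0 (0.55, limma adjusted p = 0.0548). Efr3a differed by -0.15 (adjusted p = 0.593). On the side of Myc, Trib1, a pseudokinase gene that directs protein breakdown, read 7.53 and 7.24 at day 4, against 6.32, 6.58 and 6.85 at day 0 (0.80, limma adjusted p = 0.0760). Nsmce2, of a complex for chromosome repair, differed by -0.32 (adjusted p = 0.112), and Sqle, an enzyme of cholesterol synthesis, by -0.39 (adjusted p = 0.144). None of the 6 was called by limma, while 4 had an unadjusted p under 0.05, 2 of them higher and 2 lower at day 4. Over all 8940 genes tested, 905 were higher and 991 lower at that p.

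The E-box was found in the windows of 17 of 58 genes of the 3 MYC target lists (29.3%) and of 0 of 12 cell cycle genes, beside 8.09% of all genes. It was also found in 4 of 15 p53 targets (26.7%), 2 of 7 MYC-repressed genes (28.6%) and 3 of 7 genes of the MAX and MLX network (42.9%). Cofactors held it in 1 of 15 and stability regulators in 1 of 12. The share of the MYC targets was thus not particular to them. Matches in the target lists were counted and not recorded gene by gene, so none is given for Gnl3, the called MYC target.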
